A study of Mus musculus with 3 samples.

Results

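Dorsal skin of mice contained a set of fibroblasts that carried transcripts of Dpp4, Smpd3 and Sema3e together, and these cells are described here across control, UV-exposed and ruxolitinib-treated skin. Cells were kept with 500 or more genes detected and with mitochondrial genes giving no more than 10% of the UMIs, the molecular barcodes by which captured transcripts are counted. A kept cell was called a fibroblast when Dcn, Lum, Col1a1, Col1a2 and Col3a1 together made up at least 1% of its UMIs and it had no UMI of Ptprc, Epcam or Cdh5. Members were chosen by the rule that a fibroblast had at least 1 UMI in at least 4 of the 6 genes Smpd3, Rasgef1c, Sema3e, Aldh1a3, Dpp4 and Ebf2. The rule found 1602 members and left 11612 other fibroblasts, among 32377 kept cells and 36868 barcodes. The levels of these 6 genes are therefore a description of how the members were selected and not a finding, and the same holds for every gene compared between members and other fibroblasts.

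Skin fibroblasts differ by depth: papillary cells lie under the epidermis, reticular cells in the deeper dermis, and fascial or adventitial cells below it and around vessels. Dpp4 encodes the cell-surface peptidase CD26 and Pi16 a secreted peptidase inhibitor, and both are widely used to mark the fascial and adventitial cells, which can act as progenitors of other fibroblasts. Ruxolitinib blocks the kinases JAK1 and JAK2, which pass signals from cytokine receptors to STAT transcription factors, and SOCS proteins, themselves induced by STATs, act as feedback inhibitors.

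Full-thickness dorsal skin of wild-type C57BL/6J mice, labelled female, was made into droplet libraries of single-cell transcript 3′ ends, with 1 library per condition. CON skin was not irradiated, UV skin was exposed on alternate days over 12 weeks to UVA at 0.60 mW/cm2 mixed with UVB at 3.5 mW/cm2, and Rux skin received the same irradiation followed each time by 1.5% ruxolitinib ointment. The age given is 8 weeks, that of the mice when obtained, before the weeks of irradiation. The study's outline of its groups gives CON and UV skin the vehicle without the drug, and the skin was collected a day after the last exposure. The number of mice behind each library is not given in the sources used here. With 1 library per condition no test was possible, every interval below covers counting error alone, and differences between mice, dissections or captures cannot be told apart from those between conditions.

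The libraries held 165337289, 133972374 and 131570327 UMIs in CON, UV and Rux, over 13170, 12411 and 11287 barcodes. Filters left 11453, 11027 and 9897 cells. Members carried 1022370, 9347804 and 6336030 UMIs in sum, so CON values rest on the smallest count. A member had a median of 7583 UMIs in CON, 8850 in UV and 12635 in Rux, and another fibroblast 5725, 6531 and 9434. Cells of the Rux library were therefore the deepest in both classes.

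Several checks bear on the samples as a whole. Xist, the RNA that silences an X chromosome in females, was at 0.117 CPM in CON, 0.107 in UV and 0.101 in Rux over all kept cells, where CPM is UMIs per 1000000 UMIs of the cells summed. Ddx3y, a gene of the Y chromosome, was at 110, 116 and 122 CPM in the same order. The RNA of all 3 libraries thus went against the label female, at similar levels in each. The libraries shared 50 barcodes between CON and UV, 28 between CON and Rux and 40 between UV and Rux, and none of these belonged to a member in both. Among members, 1 of 125 in CON, 95 of 1008 in UV (9.43%) and 47 of 469 in Rux (10.0%) were among the cells of highest Scrublet doublet score, against 2.82%, 5.61% and 6.42% of other fibroblasts. Without these cells the shares of members among fibroblasts were 3.88%, 18.9% and 9.49%, against 3.81%, 19.5% and 9.83% with them.

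The genes of the rule encode proteins of different kinds. Positions below are those of GENCODE M21 on GRCm38. Dpp4 lies on chromosome 2 from 62330073 to 62412231. Smpd3, which encodes a neutral sphingomyelinase that releases ceramide from sphingomyelin, lies on chromosome 8 from 106252548 to 106337988. Sema3e encodes a secreted semaphorin that signals through plexin D1, and it lies on chromosome 5 from 14025276 to 14256689. Aldh1a3, on chromosome 7 from 66390890 to 66427517, encodes an enzyme that makes retinoic acid. Ebf2, on chromosome 14 from 67233292 to 67430918, encodes a transcription factor known from adipose progenitors. Rasgef1c, on chromosome 11 from 49901835 to 49980994, encodes a protein with the domain of a Ras exchange factor. Pi16, which the rule did not use, lies on chromosome 17 from 29317680 to 29330593.

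Of the rule genes and Pi16, RefSeq (GRCm38.p6) gave promoter windows for Dpp4, Sema3e, Rasgef1c and Pi16, each from 250 bases before to 50 after a gene start, and none was read for Smpd3, Aldh1a3 and Ebf2. The windows were searched for the binding motif of EBF factors, TCCC and GGGA with any 2 bases between, which reads the same on both strands. Only the Dpp4 window held it, and the window is printed because Dpp4 names the cells and Ebf2 is a gene of the rule. It covers chr2:62412182-62412481 on the minus strand, written 5′ to 3′, with the motif in capitals, which begins at position −115 from the gene start.
Dpp4 promoter: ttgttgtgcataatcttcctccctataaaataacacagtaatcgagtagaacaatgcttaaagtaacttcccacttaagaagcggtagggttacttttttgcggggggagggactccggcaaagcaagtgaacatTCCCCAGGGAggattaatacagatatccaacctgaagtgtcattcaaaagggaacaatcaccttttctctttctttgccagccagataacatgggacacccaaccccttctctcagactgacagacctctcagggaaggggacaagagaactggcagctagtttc
The motif stood in 297 of 32851 windows (0.904%). The match is a description of letters and not evidence of binding.

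Members carried Dpp4 at 566 CPM in CON, 560 in UV and 458 in Rux, where other fibroblasts had 114, 187 and 124. Smpd3 was at 675, 667 and 465 CPM in members and at 35.4, 57.8 and 30.8 in other fibroblasts. Sema3e was at 489, 489 and 457 CPM in members and at 25.7, 47.3 and 30.6 in the others. These levels, which the rule fixed in part, lay close together in the CON and UV libraries. Ebf2 was at 396, 322 and 275 CPM in members, and Aldh1a3 at 156, 173 and 89.2 CPM. Rasgef1c stood apart from the other 5 genes, at 9.78 CPM in CON (10 UMIs), 103 in UV (963 UMIs) and 25.3 in Rux (160 UMIs). It was detected in 4% of CON members, 25.6% of UV members and 10.0% of Rux members, so CON members were in nearly all cases chosen by the other 5 genes.

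Pi16 was not used by the rule, but it is a marker named for these cells, so its levels are a description as well. Its level in members was 2015 CPM in CON, 2311 in UV and 1847 in Rux, against 624, 967 and 840 in other fibroblasts. At least 1 UMI of Pi16 was found in 95.2%, 99.0% and 97.7% of members, and in 61.0%, 74.2% and 77.7% of other fibroblasts. Among fibroblasts with exactly 3 of the rule genes it was found in 81.99%, 93.67% and 95.65%, so detection of Pi16 hardly set members apart from these in Rux. With every cell thinned to 5000 UMIs the shares were 91.7%, 97.7% and 96.3% in members and 62.0%, 76.7% and 74.4% in all other fibroblasts. Immune cells, which should lack the gene, showed a Pi16 UMI in 12.3%, 24.8% and 27.8% at median depths of 6612, 6520 and 6308 UMIs, a measure of free RNA in these libraries. The shares in members and in other fibroblasts lay above that background in all 3 libraries. Of the markers named for these cells only Pi16 lies outside the rule, and the levels of the others were fixed by the selection.

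**Figure D1:**
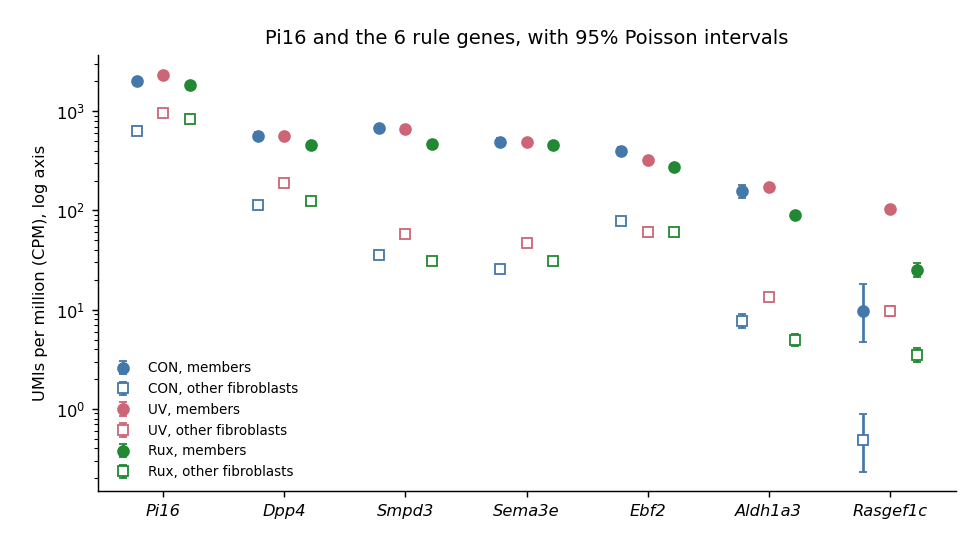
Levels of Pi16 and of the 6 genes of the rule in CPM (log axis) for members (filled circles) and other fibroblasts (open squares) of each library, with 95% Poisson intervals. Rasgef1c in members runs from 9.78 CPM in CON to 103 in UV, while Sema3e runs from 457 to 489.

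Because the choice of cells and the level of the genes share the same counts, the UMIs of each cell were split at random into equal parts, members were chosen on 1 part and levels were read from the other. This chose 70 cells in CON, 616 in UV and 278 in Rux. In the part not used, Smpd3 was at 726, 795 and 596 CPM in these cells and at 46.1, 103 and 43.2 in the remaining fibroblasts. Sema3e was at 623, 595 and 528 CPM against 31.6, 78.4 and 46.7. Aldh1a3 was at 206, 187 and 116 CPM against 9.44, 29.2 and 8.71. Rasgef1c was at 7.12, 118 and 28.2 CPM, with 2 UMIs in CON, against 0.858, 14.8 and 4.32. These are the rule's own genes, and since the split chose fewer cells than the 125, 1008 and 469 members, the values are not those of the members themselves.

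The threshold of 4 genes lay within a continuous range. Fibroblasts with 0, 1, 2, 3, 4, 5 and 6 of the genes numbered 1328, 1242, 427, 161, 77, 46 and 2 in CON. The same steps held 1395, 1559, 740, 458, 471, 432 and 105 cells in UV, and 1383, 1643, 885, 391, 261, 193 and 15 cells in Rux. In UV the numbers with 3, 4 and 5 genes were close to each other, while in CON and Rux they went down at each step. Just inside the threshold, members with exactly 4 genes had Smpd3 at 677, 518 and 336 CPM, and just outside it, fibroblasts with exactly 3 had 330, 253 and 148. Pi16 was at 1842, 2071 and 1739 CPM just inside and at 1286, 1452 and 1188 just outside.

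Members made up 3.81% of fibroblasts in CON (125 of 3283, 95% Clopper-Pearson interval 3.18 to 4.52), 19.5% in UV (1008 of 5160, 18.5 to 20.6) and 9.83% in Rux (469 of 4771, 9.0 to 10.7). The order was UV, then Rux, then CON, and the counting intervals did not overlap. Of all kept cells, members were 1.09%, 9.14% and 4.74%. Fibroblasts themselves were 28.7%, 46.8% and 48.2% of kept cells, so the UV and Rux libraries were alike in fibroblast content while their member shares differed. After each cell was thinned to 5000 UMIs, the shares were 3.72% in CON (73 of 1961), 16.3% in UV (581 of 3554) and 6.06% in Rux (235 of 3879), with 1322, 1606 and 892 fibroblasts left out as too shallow. The order was kept, and the Rux share moved closest to CON.

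Because Rasgef1c itself differed between the libraries, the share was also computed without it, which was decided after its values were seen. With at least 4 of the other 5 genes, members were 3.75%, 18.4% and 9.54% of fibroblasts. Without Dpp4, with at least 3 of the other 5, they were 4.08%, 20.4% and 10.3%. Outside the fibroblasts, at least 4 of the 6 were found in 0.524%, 1.42% and 1.04% of immune cells, and in 0.318%, 2.86% and 1.69% of epithelial cells, whose median depth was 23553, 25795 and 24884 UMIs. Both shares were below those of fibroblasts, and like them highest in UV. Sema3e had a UMI in 39.9%, 53.1% and 43.2% of epithelial cells and Pi16, of higher level in members, in 14.7%, 39.1% and 40.9%. The parts of free RNA and of the cells' own transcripts in the epithelial share were not tested. A larger number of such cells and a higher level of the rule genes in cells near the threshold cannot be told apart from these shares.

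**Figure D2:**
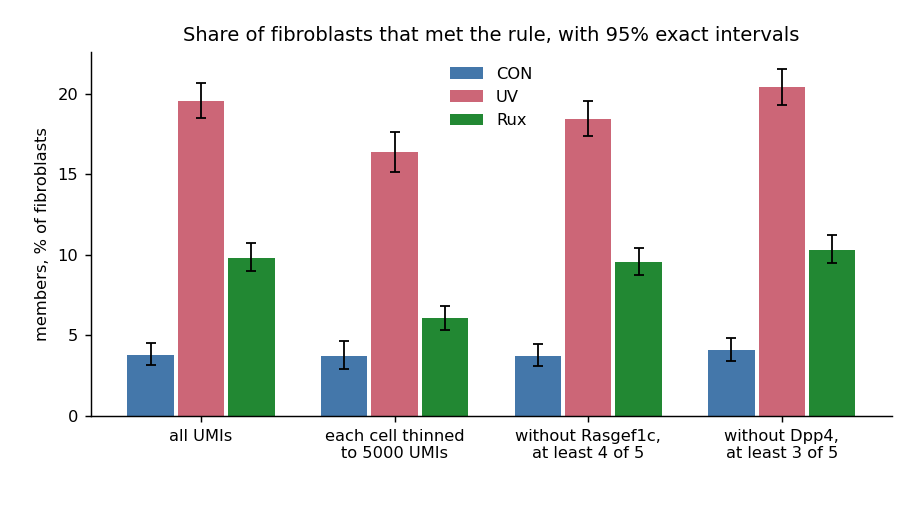
Members as a percentage of fibroblasts in CON, UV and Rux under 4 settings, with bars from 0 and 95% Clopper-Pearson intervals. UV is highest in every setting, at 16.3% to 20.4%, and CON lowest, at 3.72% to 4.08%.

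The fibroblast threshold also touched the members, since their median share of collagen, decorin and lumican UMIs was 1.35% in CON, 1.58% in UV and 1.46% in Rux, not far above the 1% required, against 2.00%, 2.23% and 2.07% in other fibroblasts. Cells with at least 4 of the genes that fell below 1% numbered 83, 201 and 171, and a further 16, 98 and 48 carried an excluded marker. Those between 0.5% and 1%, numbering 44, 116 and 118, had Pi16 at 1848, 1791 and 1451 CPM, Pdgfra, a growth factor receptor of fibroblasts, at 150, 196 and 285, and Krt14, a keratin of the epidermis, at 164, 44.1 and 51.4. With 0.5% as the threshold the member share was 4.46%, 20.1% and 11.0%. At 5%, only 0 of 321, 18 of 370 and 6 of 294 fibroblasts were members, where a count of 0 of 321 allows up to 0.935%, taken as 3 cells, and the exact Clopper-Pearson interval reaches 1.14%.

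Of 6092 genes that the rule did not use and that averaged 20 CPM or more over the 6 sums of cells, 130 (2.13%) were at least 2-fold higher in members than in other fibroblasts in all 3 libraries and 150 (2.46%) at least 2-fold lower. The rule used this contrast, so the counts and the genes below describe the members and support nothing. Highest was Mrgprg, a Mas-related receptor gene on chromosome 7 from 143763710 to 143766993, at 99.8 CPM in CON members, 59.1 in UV and 154 in Rux, against 0.926, 2.84 and 4.28 in other fibroblasts. Sntg1, which encodes a syntrophin of the dystrophin complex, was at 334, 994 and 580 CPM against 15.0, 96.5 and 23.2. Dtna, for dystrobrevin alpha of the same complex, was at 46.0, 185 and 73.5 CPM against 1.80, 21.2 and 5.06. Fibroblasts with exactly 3 of the rule genes, just outside the rule, had Sntg1 at 67.2, 380 and 93.2 CPM, so those of UV lay above the CON members.

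The other genes at this end were Efhd1, for a calcium-binding protein of mitochondria, Limch1, an actin and myosin regulator, Akr1c18, a progesterone-metabolising reductase, Car8, a carbonic anhydrase relative without enzyme activity, the unnamed gene Gm12381, Sbsn and Dmkn. Their log2 ratios nearest to 0 among the libraries ran from 2.79 for Dmkn to 3.25 for Efhd1. Sbsn (suprabasin) and Dmkn (dermokine) are best known from differentiating keratinocytes, and they lie next to each other on chromosome 7, Sbsn from 30751471 to 30756134 and Dmkn from 30763756 to 30781063. Sbsn was at 212, 182 and 378 CPM in members against 15.1, 25.6 and 24.2 in other fibroblasts. Krt14, an epidermal keratin, was at 130, 50.4 and 48.0 CPM in the same members against 117, 63.5 and 57.8. The source of the Sbsn and Dmkn transcripts was not tested.

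Lowest in members was Igfbp2, which encodes a protein that binds insulin-like growth factors, at 1.96 CPM in CON, 1.93 in UV and 2.84 in Rux against 208, 54.5 and 177 in other fibroblasts. Crabp1, for a retinoic acid binding protein of papillary cells, had 0, 25 and 1 UMIs in members and stood at 33.2, 58.8 and 28.7 CPM in the others. Tnc (tenascin C), Coch (cochlin), Fmod (fibromodulin), Ednrb (an endothelin receptor), Lrrc15, Col11a1, Lsamp and Cdh11 (an adhesion cadherin of mesenchyme) completed this end. Coch was at 2.93, 10.4 and 3.31 CPM in members against 71.6, 321 and 145.

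**Figure D3:**
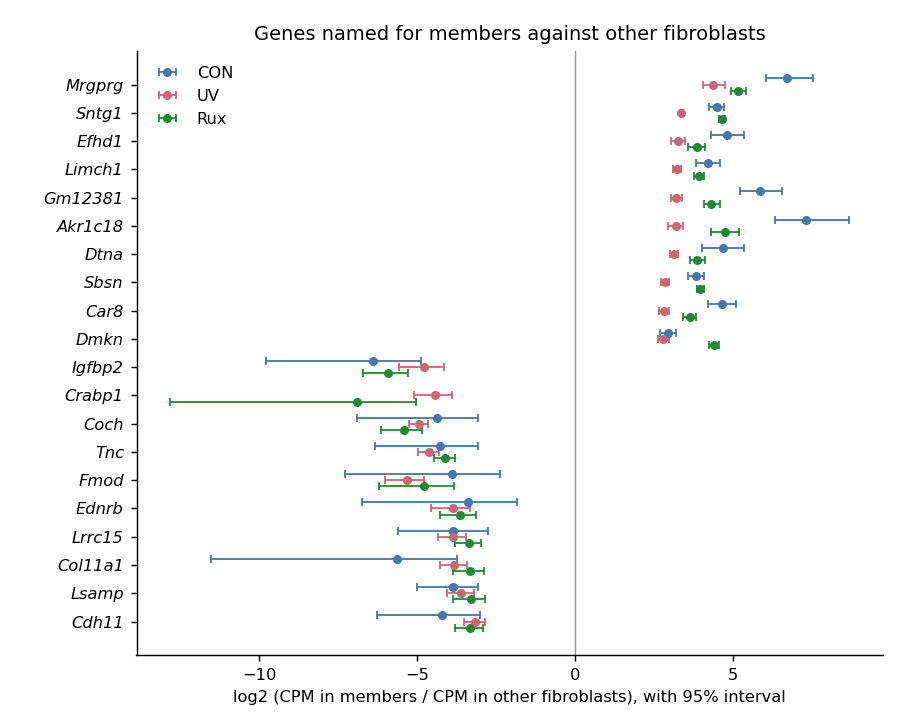
Log2 ratio of CPM in members over other fibroblasts for the 10 highest and 10 lowest genes by the ratio nearest 0 among the libraries, with 95% intervals from the counts. No interval crosses 0, and Crabp1 in CON, with 0 UMIs in members, is not drawn.

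Lists of genes known from fibroblast types and pathways follow, each read against all 6092 genes, of which 28.7% were higher and 30.1% lower in members in all 3 libraries, and 2.13% and 2.46% at least 2-fold so. Of 28 adventitial and fascial genes, 27 passed 20 CPM, 23 were higher in members in all 3 libraries, 11 of these at least 2-fold, and none was lower in all 3, with median log2 ratios of 1.23 in CON, 0.85 in UV and 0.78 in Rux. The medians of all genes were 0.006, 0.003 and −0.032. The adventitial and fascial list includes Pi16, a marker of these cells, and Efhd1 and Limch1, named above at the high end of this comparison. Its counts are therefore partly set by the choice of genes, and they describe the members without being separate support for a cell type. Fn1, for fibronectin, was at 2581, 2722 and 2650 CPM in members and at 930, 1235 and 1160 in other fibroblasts. Anxa3, an annexin, was at 628, 719 and 585 CPM against 78.9, 166 and 130, and Sema3c at 480, 551 and 542 against 88.9, 172 and 152. Just outside the rule, fibroblasts with exactly 3 of its genes had Anxa3 at 241.7, 387.1 and 262.7 CPM. Their Sema3c was at 213.8, 328.3 and 256.5 CPM. Both genes were thus also raised in the cells nearest to the members, at levels between members and all other fibroblasts. Clec3b and Dpt, at 2238 and 1731 CPM in UV members, differed less, and Dpt was at 1872 CPM in UV other fibroblasts.

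The lists of other fibroblast types held more genes lower in members than higher. Of 15 papillary genes, 7 passed, 6 were lower in members in all 3 libraries and 1 was higher, Efemp1, for a fibulin of elastic tissue, at 582, 570 and 808 CPM against 188, 211 and 332. Among 15 reticular and preadipocyte genes, 10 passed, 7 were lower, 5 of them at least 2-fold, and 1 higher, the transcription factor gene Ebf1. Apoe, for the lipid carrier apolipoprotein E, was at 138, 230 and 153 CPM against 445, 747 and 456, and the chemokine gene Cxcl12 at 118, 165 and 355 against 346, 603 and 953. Of the 12 dermal papilla and sheath genes 4 passed: Rspo3, for a Wnt agonist, was higher at 22.5, 50.9 and 34.2 CPM against 5.31, 9.27 and 3.05, and the contractile genes Tagln, Acta2 and Mylk were at least 2-fold lower.

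Matrix genes were mostly lower in members. Of 29 matrix proteins beyond those of the rule, 21 were lower in all 3 libraries, 7 of them at least 2-fold, and 3 were higher, with medians of −0.75, −0.75 and −0.76. Sparc, for osteonectin, was at 1559, 2201 and 2381 CPM against 4386, 3670 and 3429. Bgn, for biglycan, was at 206, 123 and 343 CPM against 877, 1015 and 1192. Since fibroblasts were defined by matrix genes and members lay near that threshold, this list is not independent of the choice. Of 21 matrix-degrading enzymes and inhibitors, 19 passed, 7 were higher and 12 lower in all 3 libraries, and Adamts5, an aggrecan-cleaving protease, was at 714, 826 and 781 CPM against 231, 304 and 358. Plat, for tissue plasminogen activator, was at 290, 412 and 360 CPM against 96.2, 175 and 131, while Timp1, a protease inhibitor, was at 36.2, 51.6 and 101 against 139, 211 and 322.

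Secreted signals divided. Of 36 growth factor genes, 28 passed, 15 were higher in members in all 3 libraries and 10 lower, 7 and 5 of them at least 2-fold. Wnt2, a Wnt ligand, was at 67.5, 75.5 and 61.7 CPM in members against 6.29, 12.3 and 8.80. Bmp7, a bone morphogenetic protein, was at 40.1, 51.9 and 38.2 CPM against 6.78, 7.92 and 3.25. Igfbp5 was at 1994, 987 and 1196 CPM against 519, 294 and 316, opposite in direction to Igfbp2. Of 29 inflammatory factors, 24 passed, 10 were higher and 9 lower. Cxcl13, a B-cell chemokine, was at 307, 780 and 1308 CPM in members against 27.7, 141 and 291, and C3, the central complement protein, at 2122, 3967 and 3239 against 710, 1657 and 1453. Cxcl14 was at 31.3, 29.8 and 104 CPM against 337, 325 and 623.

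The pathways of the rule genes were not shared as a whole. Of 17 retinoid genes, 10 passed, 2 were higher and 4 lower in all 3 libraries: Rarg, a retinoic acid receptor, was at 74.3, 47.5 and 57.4 CPM against 23.8, 28.1 and 28.0, and Cyp26b1, which degrades retinoic acid, at 8.80, 19.9 and 22.6 against 89.7, 44.2 and 91.4. Among 13 semaphorin ligands and receptors, 8 passed, 2 were higher and 4 lower. Nrp1, a semaphorin co-receptor, was at 58.7, 62.3 and 72.9 CPM against 146, 126 and 114. Of 21 genes of sphingomyelin and ceramide metabolism 12 passed, 2 were higher and 4 lower, and none was 2-fold different. Of 12 EBF and adipogenic factors 6 passed, 3 were higher and 2 lower, and Ebf3 was at 65.5, 69.7 and 38.5 CPM against 29.2, 35.5 and 19.1. In the lists of responses, 6 were higher and 7 lower in all 3 libraries of 26 JAK-STAT genes that passed, 5 and 3 of 12 interferon-stimulated genes, and 6 and 7 of 20 antioxidant genes. More were lower than higher among immediate-early genes, 10 against 3 of 23, and in the senescence and p53 list, 5 against 1 of 11.

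Members varied among themselves. Those with 5 or 6 of the rule genes (48, 537 and 208 cells) had Mrgprg at 131, 73.1 and 240 CPM and those with 4 (77, 471 and 261 cells) at 78.7, 42.5 and 80.5. Dmkn was at 293, 123 and 349 CPM in the first and at 93.5, 66.3 and 66.1 in the second. Cilp, a matrix gene named here after its values were seen, went the other way, at 43.6, 33.4 and 51.2 CPM against 269, 62.3 and 158. Median depth was 8363, 8860 and 13440 UMIs in the first and 7539, 8832 and 12270 in the second. Not every gene was higher with more of the rule genes: Car8 was at 116 CPM in UV members with 5 or 6 of them and at 128 in those with 4, and Dtna at 183 and 187.

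Of the fibroblast groups set beside the members, the one defined by Arhgap20, Procr and Pla1a shared many cells with them. Its rule was met by 37 of 125 members in CON, 582 of 1008 in UV and 217 of 469 in Rux, and by 34, 286 and 239 other fibroblasts. Those non-members had Sntg1 at 28.1, 533 and 82.1 CPM, Dmkn at 28.1, 77.6 and 12.0, and Pi16 at 496, 1511 and 1004, below the members as a whole for all 3 genes in each library. In UV, members with exactly 4 of the genes had Dmkn at 66.3 CPM, lower than these non-members. Tnc separated the non-members in the other direction, at 116, 97.3 and 329 CPM, where members with exactly 4 of the genes had 4.92, 10.7 and 11.2. Fibroblasts with Coch, Crabp1 and Dkk2 (18, 69 and 39 cells) and those with Thbs4, Cilp and Col8a1 (328, 195 and 225 cells) hardly overlapped with members, who met the first rule in 0, 1 and 0 cells and the second in 3, 2 and 4.

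Markers of other cell types were low in members, in CPM summed over each list. The keratinocyte list, 8 genes, stood at 438, 179 and 194 CPM in CON, UV and Rux, led by Krt14, and at 438, 211 and 216 in other fibroblasts. Endothelial genes, 8 in number, summed to 31.3, 86.9 and 45.0 CPM, of which Pecam1 gave 4.89, 71.6 and 30.8. The same list summed to 29.2, 59.2 and 53.2 CPM in other fibroblasts, so it was higher in members of CON and UV. Pecam1 had log2 ratios of members over other fibroblasts of 0.051, 1.525 and 0.661. The 8 pericyte genes, led by Pdgfrb, summed to 45.0, 63.3 and 87.9 CPM against 149, 144 and 155 in other fibroblasts. The 9 immune genes, led by Srgn, summed to 69.5, 46.1 and 46.6 CPM against 53.3, 47.9 and 56.9. The 8 Schwann and perineurial genes, led by Slc2a1, summed to 25.4, 64.7 and 34.9 CPM against 52.4, 52.2 and 30.9, higher in members of UV and Rux. The 6 muscle genes, with Pax7 and Myod1 at 0, summed to 19.6, 12.0 and 10.9 CPM against 57.2, 13.9 and 17.3 in other fibroblasts. The 6 adipocyte genes, led by Lipe, summed to 5.87, 4.6 and 6.0 CPM against 9.51, 4.67 and 5.48. The 4 haemoglobin genes summed to 1.96, 41.6 and 68.5 CPM in members and to 58.5, 108 and 166 in other fibroblasts. Keratinocyte RNA was thus highest in CON and haemoglobin RNA lowest there, in both classes, and their part in the differences between libraries was not tested. Pecam1 moved with the UV library while no other gene of the endothelial list reached a mean of 20 CPM.

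The comparison of UV with CON asked how members of skin irradiated for 12 weeks differed from those of skin that was not. Of 6039 genes that averaged 20 CPM or more in members, 160 (2.65%) were at least 2-fold higher in UV and 187 (3.1%) at least 2-fold lower, and the median log2 ratio of all genes was −0.078. Median-of-ratios scaling put that median at 0.059 and the counts at 225 and 120, so higher genes made up 65.2% of these in place of 46.1%. Directions of ratios near 0 therefore depend on the scaling. These ratios compare 2 libraries, and a change within cells cannot be told apart from a change in which cells met the rule.

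Genes of the antioxidant response marked the UV end. Hmox1, for the haem-degrading enzyme haem oxygenase 1, was at 70.4 CPM in CON members (72 UMIs), 680 in UV and 180 in Rux, a log2 ratio of 3.26 for UV over CON (2.94 to 3.63) and of −1.92 for Rux over UV (−2.01 to −1.83). In other fibroblasts it was at 53, 332 and 99.2 CPM. Of 21 antioxidant genes, most of them targets of the factor NRF2, 20 passed and 5 were at least 2-fold higher in UV members, none lower, also under median-of-ratios scaling. Srxn1, a sulfiredoxin, was at 64.6, 221 and 96.1 CPM, Gclm, a subunit of the enzyme that starts glutathione synthesis, at 56.7, 160 and 63.0, and the cystine transporter gene Slc7a11 at 13.7, 45.1 and 13.4. Their UV over CON log2 ratios were 1.76, 1.48 and 1.67 in members and 1.10, 1.05 and −0.00 in other fibroblasts. The metallothionein gene Mt1, also in the list, was lower in UV, at 6096, 3950 and 2252 CPM. The list median was 0.20 in members and 0.14 in other fibroblasts.

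The remaining genes of the UV end had other roles. Prg4, for the lubricating proteoglycan lubricin, was at 51.8 CPM in CON, 471 in UV and 1399 in Rux, and was the 1 gene named at the high end of both comparisons. Cx3cr1, a chemokine receptor gene best known from macrophages, was at 29.3, 145 and 66.9 CPM, while the immune list was at 69.5 CPM in CON and 46.1 in UV. Arhgap20, for a GTPase-activating protein, was at 129, 530 and 190 CPM, and Stard13, of the same kind, at 18.6, 97.1 and 37.9. The order of Arhgap20 was not particular to members, since fibroblasts with exactly 3 of the rule genes had it at 81.15, 401.4 and 96.57 CPM. Helb, a DNA helicase, Letm2, Lsmem1 and the unnamed gene Gm15726 had log2 ratios of 2.02 to 2.98. Among the 9 genes of this end described here, Rux was lower than UV for 8 and above CON for all 9. These genes were chosen for high UV and low CON values, so the place of Rux between them is partly set by that choice. The tally is a description, and an effect of the drug was not tested.

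Early-response genes marked the CON end. Gadd45b, a stress gene, was at 1411 CPM in CON members, 241 in UV and 272 in Rux, and Nr4a1, an orphan nuclear receptor, at 1034, 219 and 430. Of 24 immediate-early genes, a list that also records the response of cells to dissociation, 23 passed, all 23 had a log2 ratio below 0 in UV, and 15 were at least 2-fold lower, with a median of −1.13 in members and −0.84 in other fibroblasts. Under median-of-ratios scaling 22 were below 0 and 11 at least 2-fold lower. Per cell, these genes made up a median of 2.65% of UMIs in CON members (quartiles 1.49 to 3.83), 0.907% in UV (0.617 to 1.57) and 1.06% in Rux (0.675 to 1.77). The UV and Rux libraries lay together, in members and in other fibroblasts, and the keratinocyte RNA in members, 438 CPM in CON against 179 and 194, followed the same order. The part of dissociation in this difference was not tested.

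Several of these genes sit downstream of cytokine receptors. Irf1, an interferon-induced transcription factor, was at 757 CPM in CON members, 158 in UV and 174 in Rux, and Socs1 at 138, 29.4 and 15.6. Socs3 was at 844, 290 and 101 CPM, lower in UV than in CON and lower again in Rux. Of 28 genes of the JAK-STAT pathway, 24 passed, 18 were below 0 in UV over CON and 5 at least 2-fold lower (Socs1, Socs2, Socs3, Irf1 and Bcl3, the last outside the naming rule), none higher, with medians of −0.43 in members and −0.13 in other fibroblasts. Jak1 itself was at 560, 597 and 491 CPM. Iigp1 (an interferon-induced GTPase), Tnfaip3 (an inhibitor of NF-κB) and Hes1 (a target of Notch) had UV over CON log2 ratios of −2.01, −2.10 and −2.16.

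Among genes that averaged 50 CPM or more in the 2 libraries and had at least 100 UMIs, the lowest ratio belonged to Ccn2, which encodes a matricellular growth factor induced by TGF-β and YAP. It was at 120 CPM in CON members, 13.9 in UV and 42.1 in Rux, with log2 ratios of −3.11 for UV over CON (−3.48 to −2.75) and 1.60 for Rux over UV (1.29 to 1.91). Other fibroblasts had 184, 127 and 211 CPM and log2 ratios of −0.53 (−0.60 to −0.47) and 0.73. The intervals for UV over CON did not overlap between the 2 classes, although no test of the difference over samples was possible. Ltbp4, for a protein that holds latent TGF-β in the matrix, was at 139, 27.8 and 53.3 CPM in members and at 299, 176 and 179 in the others.

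Of 26 matrix genes that passed in members, 14 were above and 12 below 0 in UV over CON, and 1 was at least 2-fold lower, Col12a1 at 126, 55.4 and 80.5 CPM. Without the cells of highest Scrublet score 12 were above and 14 below 0 and 3 at least 2-fold lower, and median-of-ratios scaling gave 18 above, 8 below and 1 at least 2-fold in each direction. Among 18 matrix-degrading enzymes and inhibitors, 14 were above 0 and none was 2-fold different in CPM, with Mmp3 at 201, 398 and 419 CPM. Median-of-ratios scaling put 1 of these 18 at least 2-fold higher. Of 25 growth factor genes, 2 were at least 2-fold higher, among them Vegfa, for a vessel growth factor, at 104, 211 and 150 CPM, and 2 at least 2-fold lower, Bmp4 and, with a log2 ratio of −1.02, Igfbp5. Median-of-ratios scaling gave 3 higher and 1 lower, and equal weight per cell 2 and 1. Bmp4 was at 74.3, 30.3 and 24.3 CPM. Among 24 inflammatory factors 2 were at least 2-fold higher, Cxcl13 and Hp, which had no UMI in CON members and was at 19.0 and 75.6 CPM in UV and Rux. Ccl19 and Tslp were at least 2-fold lower, Ccl19 at 55.8, 19.9 and 31.2 CPM for its chromosome 4 gene (ENSMUSG00000071005). A second gene ID shares the symbol Ccl19 and had no UMI in members, so the level of Ccl19 is uncertain where reads fit both copies. With median-of-ratios scaling 6 of 23 inflammatory factors were at least 2-fold higher in UV and 1 lower. Ccl2, a monocyte chemokine, was at 3716 CPM in CON members and 3873 in UV.

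Interferon-stimulated genes were mixed: 14 of 21 passed, 5 were above 0 and 9 below, and 1 was at least 2-fold higher, Ifitm1 at 30.3, 102 and 85.7 CPM. Equal weight per cell and median-of-ratios scaling each put 2 of these 14 at least 2-fold higher. In the senescence and p53 list, 10 of 16 passed and 3 were at least 2-fold lower in UV, none higher. Median-of-ratios scaling left 2 of these 10 genes at least 2-fold lower. Cdkn1a, for the cell-cycle inhibitor p21, was at 522, 185 and 209 CPM. Ccnd1, for cyclin D1, was at 71.4, 28.7 and 35.5 CPM and Gadd45a at 99.8, 47.2 and 15.2. Cebpb and Cebpd, adipogenic factors that also respond to cytokines, were at least 2-fold lower, Cebpd at 1360, 530 and 338 CPM, and median-of-ratios scaling left 1 gene of this list 2-fold lower. Of the adventitial and fascial genes 0 of 27 were at least 2-fold different in either direction, with a median of −0.02 in members and 0.42 in other fibroblasts, while median-of-ratios scaling gave 1 gene higher and a median of 0.11 in members. Papillary and reticular genes held 1 each at least 2-fold lower, Trps1 at 65.5, 16.9 and 5.05 CPM and Icam1, an adhesion molecule, at 444, 179 and 277. The papillary call was lost in 2 alternatives: with equal weight per cell, and without the highest Scrublet scores, 4 papillary genes passed and 0 were 2-fold lower. Of the retinoid and sphingolipid genes none was 2-fold different in CPM, but median-of-ratios scaling put 1 of each list 2-fold higher, and equal weight per cell 2 retinoid genes higher and 1 sphingolipid gene lower. Of the semaphorin genes Sema3a was at least 2-fold higher and Nrp2 lower. Rspo3, the 1 dermal papilla gene that passed in members, was higher at 22.5 CPM in CON and 50.9 in UV.

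**Figure D4:**
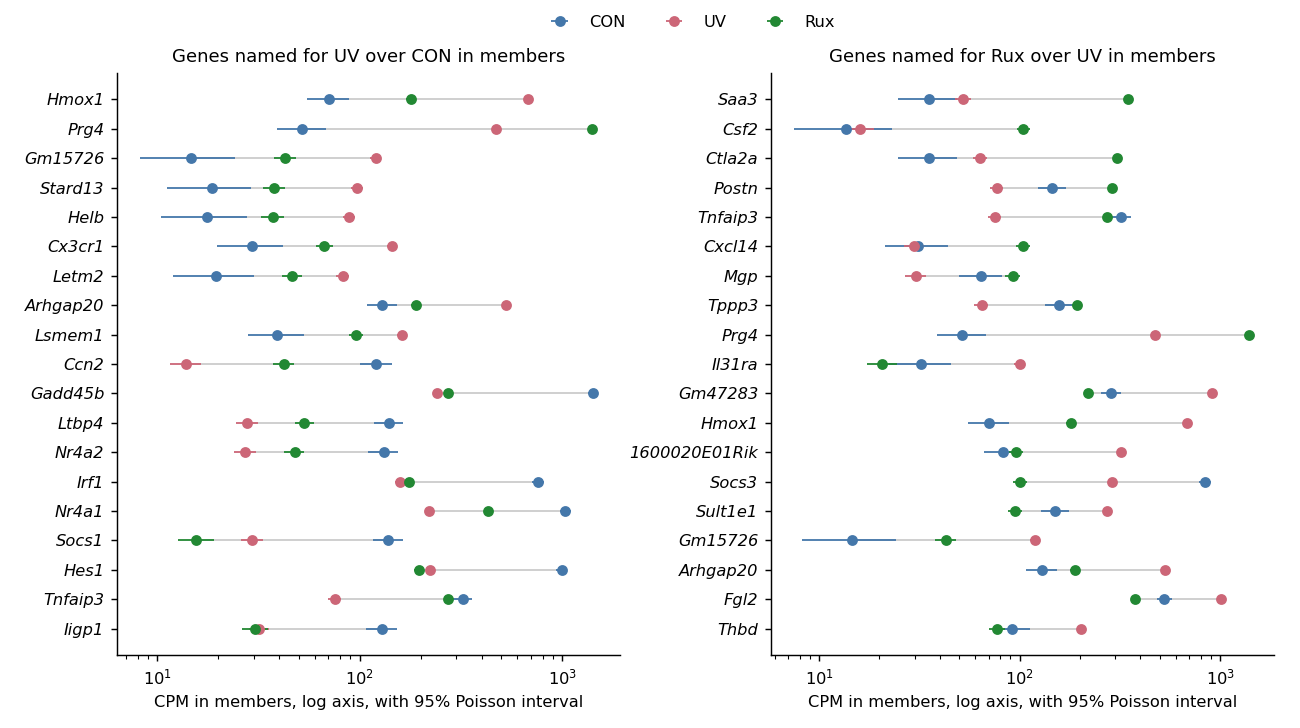
Levels in members (CPM, log axis, 95% Poisson intervals) in CON, UV and Rux for genes from the 10 highest and 10 lowest of UV over CON (left) and of Rux over UV (right), less 1 gene on each side that is not reported here. On the left, Rux lies between CON and UV for Hmox1, at 180 CPM between 70.4 and 680, and beyond UV for Prg4, at 1399.

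The comparison of Rux with UV asked how members of irradiated skin differed with topical JAK inhibition. Of the 6039 genes, 61 (1.01%) were at least 2-fold higher in Rux and 93 (1.54%) at least 2-fold lower, with a median log2 ratio of 0.012. The comparison shares the UV library with the one above, so opposite signs in the 2 comparisons are no separate observation, and levels in all 3 libraries are given instead.

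Socs3, an inhibitor of JAK signalling that is itself induced by it, was at 101 CPM in Rux against 290 in UV, a log2 ratio of −1.53 (−1.65 to −1.40), and in other fibroblasts at 139 against 511. Stat2, for a transcription factor of interferon signalling, was at 79.2, 47.0 and 22.1 CPM in CON, UV and Rux. Of the 24 JAK-STAT genes these 2 were at least 2-fold lower and none higher, and 13 were above 0 and 11 below, with a median of 0.10 in members and −0.32 in other fibroblasts. Il31ra, for a subunit of the IL-31 receptor, was at 32.3, 100 and 20.7 CPM, a log2 ratio of −2.27 (−2.55 to −2.01) in members and −1.06 in other fibroblasts. Among 14 interferon-stimulated genes 10 were below 0 and 1 at least 2-fold lower, Ifit1 at 18.6, 37.0 and 15.6 CPM, and Isg15, for a ubiquitin-like protein, was at 91.9, 74.1 and 43.7.

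Antioxidant genes were lower in Rux as well: 15 of 20 were below 0 and 6 at least 2-fold lower, with a median of −0.36 in members and −0.35 in other fibroblasts. Hmox1, Slc7a11, Gclm and Srxn1 had the lowest ratios, with Slc7a11 at 13.4 CPM in Rux, close to 13.7 in CON. Fgl2, for a fibrinogen-like protein, was at 526, 1006 and 376 CPM, and Thbd, for the anticoagulant receptor thrombomodulin, at 91.9, 203 and 77.5. Sult1e1, an oestrogen sulfotransferase, was at 151, 273 and 95.3 CPM. Gm47283 and 1600020E01Rik, genes without a known product, were at 911 and 320 CPM in UV and at 220 and 95.6 in Rux. For Il31ra, Gm47283, Socs3, Sult1e1, Fgl2 and Thbd the level in Rux lay below that in CON, and for Hmox1, 1600020E01Rik, Gm15726 and Arhgap20 between CON and UV.

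Saa3, for serum amyloid A3, was at 35.2 CPM in CON members, 52.2 in UV and 346 in Rux, a log2 ratio of 2.73 for Rux over UV (2.59 to 2.87), and at 75, 100 and 809 in other fibroblasts. Csf2, for the cytokine GM-CSF, was at 13.7, 16.0 and 104 CPM, with 662 UMIs in Rux. Of 24 inflammatory factors 18 were above 0 and 5 at least 2-fold higher, Saa3, Lcn2, Hp, Cxcl14 and Cxcl12, and 1 was at least 2-fold lower, Il6 at 827, 991 and 456 CPM. Cxcl12 and Il6 are outside the naming rule for this contrast. Immune markers in members summed to 46.1 CPM in UV and 46.6 in Rux. Tnfaip3 was at 322, 75.1 and 272 CPM. Tppp3, a tubulin-binding protein gene, and Ctla2a, a protease inhibitor gene, were at 193 and 307 CPM in Rux, against 64.6 and 63.8 in UV.

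Matrix genes were above 0 in 18 of 26 cases and at least 2-fold higher in 4, with a median of 0.29 in members and 0.06 in other fibroblasts. Postn, for periostin, was at 146, 77.0 and 289 CPM, a log2 ratio of 1.91 for Rux over UV (1.78 to 2.03). Bgn was at 206, 123 and 343 CPM, Thbs1, for thrombospondin 1, at 103, 87.9 and 236, and Col14a1 at 375, 348 and 717. Mgp, for matrix Gla protein, a calcification inhibitor, was at 64.6, 30.4 and 92.3 CPM. For Postn, Bgn, Col14a1 and Mgp the UV library was lowest in members. In other fibroblasts Postn was at 168, 389 and 971 CPM, higher at each step from CON to Rux, and its UV over CON log2 ratio was −0.92 in members (−1.18 to −0.66) and 1.21 in the others (1.15 to 1.26).

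Further lists showed single genes. Among 18 matrix-degrading enzymes and inhibitors, 2 were at least 2-fold higher in Rux and none was lower, with Ctsk, for cathepsin K, at 263, 288 and 620 CPM. Median-of-ratios scaling gave 4 higher, and removal of the cells of highest Scrublet score 4 higher and 1 lower. Of 25 growth factor genes 2 were at least 2-fold higher, among them Tgfb1 at 56.0 CPM in Rux against 26.4 in UV, and the Wnt antagonist gene Sfrp4 lower, at 59.3 against 131. No immediate-early gene of 23 differed 2-fold in CPM, and 15 were above 0, while equal weight for each cell, median-of-ratios scaling and removal of the highest Scrublet scores each put 1 gene 2-fold higher. Has1, for a hyaluronan synthase, was the 1 adventitial and fascial gene at least 2-fold different, at 2854, 1720 and 724 CPM. Trps1 and Gadd45a were the papillary and the senescence gene at least 2-fold lower. With equal weight per cell, and without the highest Scrublet scores, 4 papillary genes passed and 0 were 2-fold lower. In the reticular list Cxcl12 and Fabp4 were higher and Sfrp4 lower. Sema3a was the 1 semaphorin gene at least 2-fold lower, and no EBF, retinoid or sphingolipid gene was 2-fold different, although 1 EBF and adipogenic gene was lower with equal weight for each cell. In Rux over UV no list count at 2-fold, in either direction, differed by more than 2 genes from that given when the scaling, the weight of cells, the highest Scrublet scores or Rasgef1c were changed or left out.

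**Figure D5:**
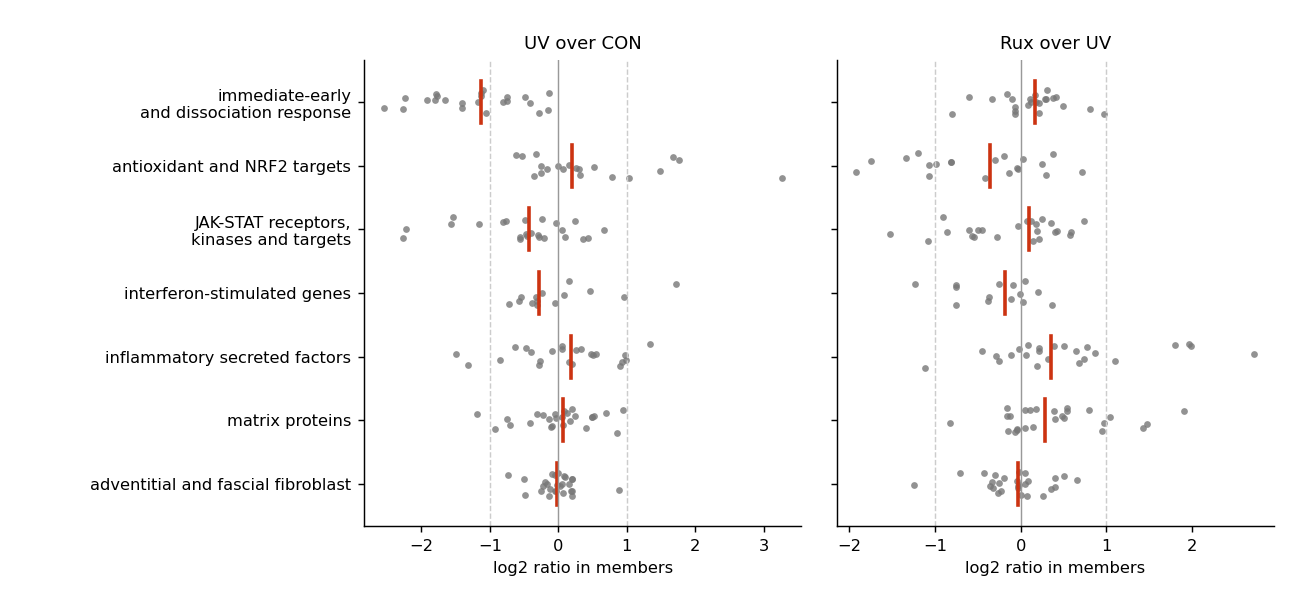
Log2 ratios in members for UV over CON (left) and Rux over UV (right) for the genes of 7 lists that averaged 20 CPM or more, each gene a grey point (drawn where both libraries had a UMI) and the list median a red line, with dashed lines at 2-fold. The immediate-early list lies at a median of −1.13 on the left and 0.17 on the right, and the antioxidant list at 0.20 and −0.36.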

How the data were processed

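The authors deposited count matrices of UMIs per gene and cell, 1 library per condition. The submitters' processing notes name Cell Ranger 6.1.2 and Seurat 5.3.0, while the matrix headers name Cell Ranger 7.0.0; the genome was mm10. Of 32285 gene IDs, 32158 were found in GENCODE M21. Counts were summed over members and over other fibroblasts in each library and divided by the sum (CPM); the 14 genes of the rule were left out of counts of genes. Ratios had 0.5 UMI added, and intervals (95%, Poisson, binomial and Clopper-Pearson) cover counting error only. No test or p-value was computed, since each condition had 1 library. The members and all 25 gene lists were chosen with earlier results of these data known.

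Named genes were the rule genes and markers, the 10 highest and 10 lowest genes of each comparison (members over other fibroblasts at a mean of 20 CPM, ranked by the ratio nearest 0; between libraries at a mean of 50 CPM and 100 UMIs), and from each list up to 4 of highest level and up to 4 of largest ratio; some of these genes are not reported here. Doublets were not removed beyond the 3 excluded marker genes; cells of highest Scrublet score, 0.8% per 1000 cells, were removed as an alternative. Cells with fibroblast genes under 1% were called immune with a UMI of Ptprc, and epithelial with a UMI of Epcam and at least 10 of Krt5 and Krt14. Other alternatives changed the number of rule genes, the thresholds, depth, scaling and minimum level. Scripts used python 3.11.15, numpy 2.4.6, scipy 1.17.1, pandas 2.3.3 and scanpy 1.11.5 and were checked on simulated data.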

Additional observations from a re-analysis of the deposited data

Results flagged for a closer look

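For each comparison between libraries, the genes at either end of it and the list genes at least 2-fold different in it in members were compared with other fibroblasts. A gene was picked out where that ratio had opposite signs in the 2 classes and neither counting interval included 0. Postn, under 2-fold for UV over CON in members, was outside this choice for that comparison although its signs were opposite. Sema3a, for a secreted semaphorin, had a log2 ratio of 1.09 for UV over CON in members and −0.47 in other fibroblasts. For Rux over UV it had −1.13 in members and 0.89 in other fibroblasts. Its levels were low, at 16.6, 36.5 and 16.6 CPM in CON, UV and Rux members and at 41.6, 29.9 and 55.6 in other fibroblasts, and both ratios share the UV library. Thbs1, for thrombospondin 1, had a log2 ratio of 1.43 for Rux over UV in members and −0.46 in other fibroblasts, with 103, 87.9 and 236 CPM in members and 696, 1107 and 802 in the others. With 1 library per condition the difference was not tested for either gene.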

How the results depend on the processing

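No paired analysis was possible because each condition had 1 library, and for the same reason no replicate could be left out. The member share was highest in UV and lowest in CON under every alternative run. With at least 3 of the 6 genes it was 8.71% in CON, 28.4% in UV and 18.0% in Rux, and with at least 5 it was 1.46%, 10.4% and 4.36%. Thinning to 5000 UMIs gave 16.3% in UV and 6.06% in Rux. With fibroblast genes at 5% or more the shares were 0%, 4.87% and 2.04%, over few cells. Of 2 alternatives chosen after seeing the data, fibroblast genes at 0.5% gave 11.0% in Rux, and leaving out Rasgef1c gave 18.4% in UV. With at least 3 of 6 genes, 90 genes were at least 2-fold lower in members than in other fibroblasts, against 150. Median-of-ratios scaling gave 120 genes lower in UV than in CON, against 187. A minimum of 10 UMIs in place of 20 CPM gave 733 genes higher and 512 lower in members, 1783 higher and 1650 lower in UV over CON, and 528 higher and 1523 lower in Rux over UV; this minimum admits genes of few counts. No other cause was tested. The 10 highest and 10 lowest genes of each comparison gave 60 ratios, of which 20 were run for members chosen on separate UMIs, 40 without Rasgef1c and none for the 10-UMI minimum. In these runs no ratio changed sign, 134 values lay outside the counting interval of the reported ratio, 406 did not, and 2 fell under 2-fold with at least 5 of 6 genes, those of Mgp and Thbd for Rux over UV. Of 493 medians of gene lists under the alternatives, 106 moved by 0.1 or more on the log2 scale and 35 changed sign, 1 of them with a reported median at least 0.2 from 0.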
